A study of Mus musculus with 24 samples.

Results

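The 4 genes described here are Rpl3l and Eef1a2, which are the striated-muscle versions of 2 parts of the translation machinery, and Rpl3 and Eef1a1, which are their widely expressed counterparts. They were taken by name as 4 of the 23998 rows of a table of polyA RNA from mouse heart, and they were selected on their FPKM in these libraries, in the contrasts of mutant with wild type and of shRNA with control virus. Their levels, differences and ratios are therefore a description, and no p-value is given for them.

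Ribosomal protein uL3 sits close to the site where the ribosome joins amino acids. Most cells make it from Rpl3, and adult heart and skeletal muscle make it largely from Rpl3l, whose level is known to drop when muscle is made to grow while Rpl3 rises. Elongation factor eEF1A carries each charged tRNA to the ribosome. Eef1a1 encodes the form of most tissues and Eef1a2 the form that replaces it after birth in heart muscle, skeletal muscle and neurons. In both pairs the paralogs are close in sequence, and the ratio of muscle to general form is the quantity set beside the single levels below.

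The 13 hearts came from mice on a CD1 background that were sampled at 4 months of age. All of them carried a human MYL2 transgene, coding for the regulatory light chain of ventricular myosin, and the genotype field reads RLC-47K L6 for all 13. By their sample names 3 hearts carried the normal human allele and had received a control AAV9 virus that makes no M7.8L shRNA (wild type here), and 10 carried the mutated allele. Of these 10 mutant hearts, 3 were untreated, 3 had received the control virus and 4 are labelled as treated with the shRNA, delivered by AAV9 into the jugular vein at 3 days of age. Because the wild types had the control virus, genotype and virus cannot be told apart between untreated mutants and wild types. No source used here gives the promoter that drives the transgene, and nothing beyond the animal numbers says how the mice were related, so the spread between libraries may include litter or technical differences.

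Values are deposited FPKM, fragments scaled to transcript length and to the mapped fragments of the library. The scale is per length, so levels of different genes can be set side by side, but the number of reads behind a value is unknown and counting error is unknown too. Library totals lay between 580948 and 1701499 FPKM, and the median library shift over genes above 0 in every library ran from -0.54 to 0.82 on the log2 scale, highest in shRNA replicate 8. The library labelled shRNA replicate 8 stood apart from the other 3 of its group. The row hMyl2 was at 229, 420 and 317 FPKM in shRNA replicates 5, 6 and 7, at 0 in replicate 8 and at 0 in the other 9 libraries, although all 13 mice are labelled as carrying the human transgene, and the row named shRNA was at 0 in all 13. Six3, a transcription factor gene of the eye and forebrain, was between 13.6 and 27.6 FPKM in the 6 mutants without shRNA and at 60.6 in shRNA replicate 8, but at most 0.091 in the wild types and in shRNA replicates 5 to 7. Sex, read from the Y-linked gene Ddx3y, was also uneven: 2 male and 1 female wild types, 2 male and 1 female untreated mutants, 3 female control-virus mutants, and 3 male shRNA mutants (replicates 5 to 7) beside the female replicate 8. Results on the shRNA group are therefore given with and without replicate 8.

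Rpl3l, the muscle uL3 gene, was abundant in wild-type hearts and scarce in mutants that had no shRNA. It stood at 601.5, 584.7 and 552.4 FPKM in wild-type replicates 2, 3 and 4. In untreated mutants 9, 10 and 11 it stood at 81.9, 23.1 and 29.3 FPKM, and in control-virus mutants 1, 2 and 3 at 30.9, 78.3 and 93.0 FPKM. The lowest wild type was thus far above the highest mutant of these 6, and the 2 mutant groups overlapped. Group means were 579.6 ± 24.9 in wild type (SD, n = 3), 44.8 ± 32.3 in untreated mutants (n = 3) and 67.4 ± 32.5 in control-virus mutants (n = 3), so the mean was 12.9-fold lower in the untreated mutants and 8.60-fold lower in the control-virus mutants than in wild type. The test set was 12980 genes averaging 1 FPKM or more across the 13 libraries, and in rank of mean FPKM among them Rpl3l went from place 243 in wild type to 2324 in untreated and 1855 in control-virus mutants.

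In the shRNA group, Rpl3l stood at 616.5, 1027.1 and 789.0 FPKM in replicates 5, 6 and 7 and at 118.2 FPKM in replicate 8. On the deposited scale the first 3 lay above all 3 wild types, and replicate 8 lay between the highest control-virus mutant and the lowest wild type. With libraries aligned on their medians replicate 8 was at 67.2 FPKM, inside the range of the 6 mutants without shRNA (33.7 to 117.4). Replicates 5, 6 and 7 were then at 642 to 746 FPKM, overlapping the wild types at 523 to 650. The deposited mean was 638 ± 385 FPKM with all 4 libraries and 811 ± 206 without replicate 8. From the highest deposited mean down, the order of groups was shRNA, wild type, control-virus mutant and untreated mutant. The shRNA and wild-type groups overlapped when replicate 8 was included, and so did the 2 mutant groups without shRNA, so neither of these neighbours differed beyond its spread.

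The RefSeq promoter table (build GRCm38.p6) held an upstream window for 3 of the 4 members, namely Rpl3l, Eef1a2 and Eef1a1. The 250 bases before each listed start of the muscle genes are shown because these are the members that were low together in the mutants. Rpl3l has 2 listed starts, at chr17:24727576-24727825 for the first window and chr17:24732435-24732684 for the second, both on the + strand, and the second window lies inside the gene. The window of Eef1a2 is chr2:181157016-181157265 on the - strand. Capitals mark matches, on either strand, to 6 motifs searched: the E-box CANNTG bound by muscle helix-loop-helix factors, the TEAD factor element CATTCC, the nuclear receptor element AGGTCA, the core promoter element TATAAA, the MEF2 element and the CArG box of serum response factor.
Rpl3l, first start: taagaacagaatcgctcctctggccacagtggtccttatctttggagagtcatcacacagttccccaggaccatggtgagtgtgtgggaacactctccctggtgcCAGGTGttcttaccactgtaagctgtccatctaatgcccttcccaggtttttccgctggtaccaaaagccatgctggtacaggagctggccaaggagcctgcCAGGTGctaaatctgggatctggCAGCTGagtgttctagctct
Rpl3l, second start: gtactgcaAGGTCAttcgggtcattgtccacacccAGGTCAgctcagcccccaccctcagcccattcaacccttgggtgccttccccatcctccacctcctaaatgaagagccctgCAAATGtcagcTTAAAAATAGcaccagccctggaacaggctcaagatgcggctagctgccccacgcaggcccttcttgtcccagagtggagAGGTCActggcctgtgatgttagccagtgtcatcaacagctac
Eef1a2: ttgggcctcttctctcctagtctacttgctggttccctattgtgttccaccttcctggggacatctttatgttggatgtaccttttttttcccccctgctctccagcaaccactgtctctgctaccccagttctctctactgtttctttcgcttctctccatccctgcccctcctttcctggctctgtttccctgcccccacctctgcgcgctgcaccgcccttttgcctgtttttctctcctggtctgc
The first Rpl3l window held 3 E-boxes, beginning at -145, -43 and -20 relative to the start, of which the first and second read CAGGTG. The second held AGGTCA at -242, -215 and -43, an E-box at -134 and a MEF2 match at -123, whose letters are in capitals. Neither the Eef1a2 nor the Eef1a1 window held a match to any of the 6. Among 32851 windows of the same length, 66.2% held an E-box, 12.6% the TEAD element, 14.0% the nuclear receptor element, 12.4% the core promoter element, 2.92% a MEF2 match and 1.47% a CArG box. A match is a string of letters and not a shown binding site. The Eef1a1 window was richer in G and C (68%) than those of Rpl3l (53.2% and 56.4%) and Eef1a2 (54%), where the median window had 52.4%.

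Rpl3, the general uL3 gene, differed in the opposite direction, at a level that needs caution. Wild-type replicates 2, 3 and 4 had 15.8, 16.7 and 0.60 FPKM, untreated mutants 29.4, 23.5 and 25.1, and control-virus mutants 58.3, 37.5 and 50.7. On the deposited scale the 3 groups did not overlap, and control-virus mutants were highest. Means were 11.0 ± 9.04, 26.0 ± 3.00 and 48.8 ± 10.5 FPKM (SD, n = 3 each), 2.36-fold above wild type in untreated and 4.43-fold in control-virus mutants. The wild-type mean rests on replicate 4: on the log2(FPKM + 1) scale the control-virus mutant minus wild-type difference of 2.65 became 1.51 without it, and the untreated mutant difference of 1.78 became 0.64. The shRNA libraries had 22.1, 35.2 and 13.7 FPKM in replicates 5, 6 and 7, a range that overlaps the wild types and the untreated mutants, and 122.4 in replicate 8, the highest of the 13. With libraries aligned, untreated mutants were at 30.5 to 34.7 FPKM and control-virus mutants at 34.2 to 66.1, so these groups overlapped. Replicate 8 was then at 69.6 FPKM.

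Rpl3 belongs to a multi-copy family in the mouse, and its row was low for a ribosomal protein. Of 79 rows for cytosolic ribosomal proteins, 13 had a wild-type mean below 5 FPKM and 35 had one above 100, with a median of 61.8. Ribosomal proteins are needed in near-equal numbers, yet Rpl4 stood at 684 FPKM and Rpl10 at 0 in the same hearts. Rpl3, at 11.0 FPKM, was the 20th from the bottom. RefSeq names 2 pseudogenes for Rpl3 and 2 for Eef1a1 but 0 for Rpl3l and 0 for Eef1a2, and 0 of these pseudogenes has a row in the table. No source used here states how reads that match several copies were shared out. The absolute level of Rpl3, and with it the size of the Rpl3l to Rpl3 ratio, is thus uncertain, whereas Rpl3l and Eef1a2 are single-copy rows.

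**Figure D1:**
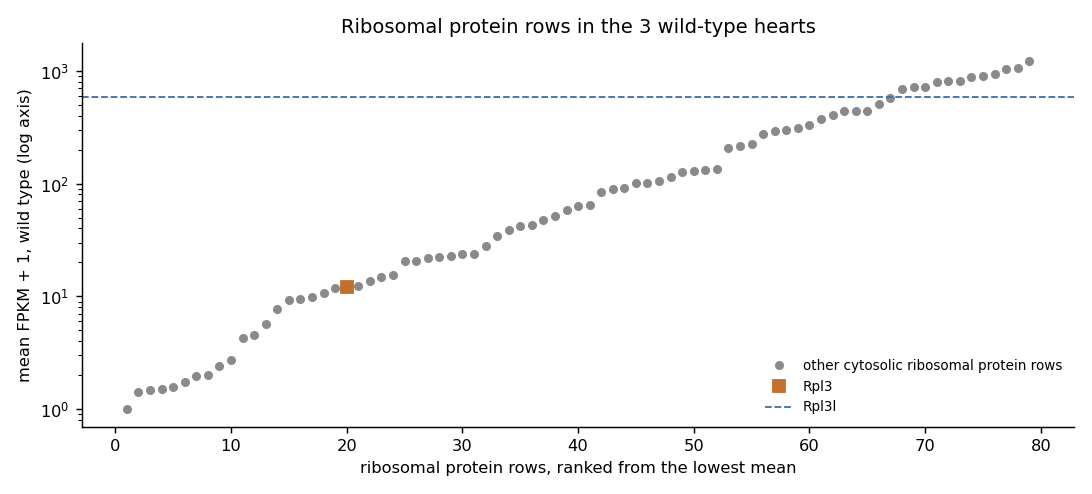
Mean FPKM + 1 over the 3 wild-type hearts (log axis) of the 79 cytosolic ribosomal protein rows, ranked from the lowest. The square marks Rpl3 at 11.0 FPKM and the dashed line marks Rpl3l at 579.6 FPKM, and the rows spread from 0 to 1224 FPKM.

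Eef1a2, the muscle eEF1A gene, was lower in the mutants without shRNA by a smaller factor than Rpl3l. Wild types had 1658, 1755 and 1856 FPKM. Untreated mutants had 1258, 713 and 974, and control-virus mutants 991, 1182 and 1196. All 6 mutants lay below all 3 wild types, and the 2 mutant groups overlapped. Means were 1757 ± 98.8 in wild type, 982 ± 273 in untreated and 1123 ± 114 in control-virus mutants (SD, n = 3 each), which is 1.79-fold and 1.56-fold below wild type. The median of all 12980 genes tested was itself shifted by -0.33 on the log2 scale in untreated and by -0.14 in control-virus mutants against wild type, and the Eef1a2 differences on that scale were -0.88 ± 0.24 (SE) and -0.65 ± 0.10. With the libraries aligned on their medians, Eef1a2 still lay at 1039 to 1342 FPKM in untreated mutants and 1079 to 1509 in control-virus mutants, against 1688 to 1791 in wild types.

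In shRNA replicates 5, 6, 7 and 8, Eef1a2 stood at 1694, 3006, 2058 and 1805 FPKM, a mean of 2141 ± 596 (SD, n = 4) that was 1.22-fold the wild-type mean. On the deposited scale replicate 8 thus fell in the wild-type range, unlike its Rpl3l. After alignment replicate 8 was at 1026 FPKM, below all 6 mutants without shRNA, while replicates 5 to 7 were at 1675 to 2182. For Eef1a2 as for Rpl3l, then, the place of replicate 8 depends on the scale between libraries. The order of deposited group means was shRNA, wild type, control-virus mutant and untreated mutant, with overlap between the first 2 and between the last 2.

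Eef1a1, the general eEF1A gene, was higher in every mutant without shRNA than in any wild type. Wild types had 624, 713 and 807 FPKM, untreated mutants 2090, 1976 and 1779, and control-virus mutants 2242, 2855 and 2064. Means were 715 ± 91.3, 1948 ± 157 and 2387 ± 415 FPKM (SD, n = 3 each), 2.73-fold and 3.34-fold above wild type, and the 2 mutant groups overlapped. Eef1a1 was the 27th and the 31st most abundant of 12980 genes in untreated and control-virus mutants, and the 200th in wild type. shRNA replicates 5, 6 and 7 had 643, 1289 and 969 FPKM, with 1 of 3 inside the wild-type range and the other two above it, and replicate 8 had 5394, the highest of all libraries. Without replicate 8 the shRNA mean was 967 ± 323, and with it 2074 ± 2229. With libraries aligned, replicate 8 was at 3066 FPKM, beside 2169 to 2878 in untreated and 2543 to 2607 in control-virus mutants. Like Rpl3, Eef1a1 has processed copies in the genome, so its level carries the same caution.

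**Figure D2:**
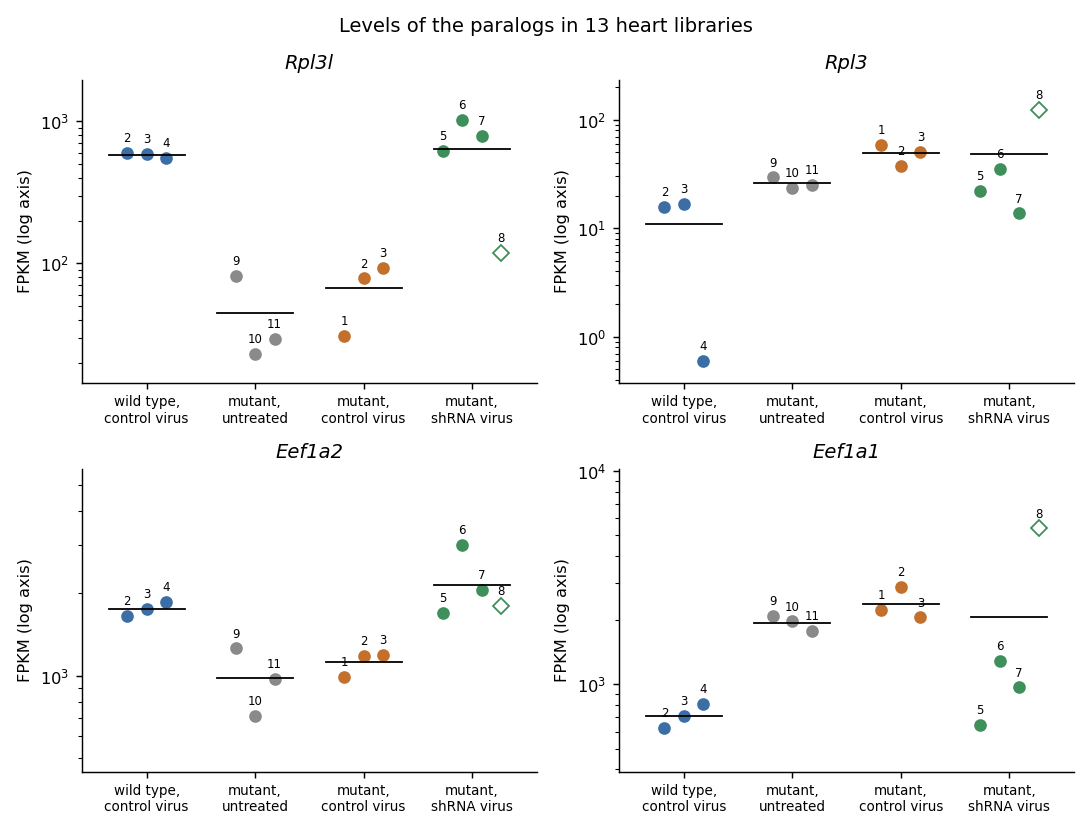
Deposited FPKM (log axes), with libraries not aligned, of Rpl3l, Rpl3, Eef1a2 and Eef1a1 in each of 13 heart libraries by group. Points are libraries numbered by replicate, bars are group means and the open diamond is shRNA replicate 8, which is the highest of all libraries for Rpl3 and Eef1a1, lies between mutants without shRNA and wild types for Rpl3l and within the wild-type range for Eef1a2.

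The main source of eEF1A transcript differed between wild types and mutants. Eef1a2 made up 72.7, 71.1 and 69.7% of the sum of both genes in wild types, 37.6, 26.5 and 35.4% in untreated mutants and 30.7, 29.3 and 36.7% in control-virus mutants. In wild types Eef1a2 was thus the larger part in 3 of 3 hearts, and in mutants without shRNA Eef1a1 was the larger part in 6 of 6. The sum of the pair was 2471 ± 190 FPKM in wild type, 2930 ± 364 in untreated and 3510 ± 457 in control-virus mutants, and neither mutant group overlapped with wild type, so the excess of Eef1a1 was larger than the deficit of Eef1a2.

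The uL3 pair differed from this. Rpl3l made up 97.4, 97.2 and 99.9% of its pair in wild types, 73.6, 49.6 and 53.8% in untreated mutants and 34.6, 67.6 and 64.7% in control-virus mutants. The sum of Rpl3l and Rpl3 was 591 ± 33.5 FPKM in wild type and only 70.8 ± 35.3 and 116 ± 27.3 in the untreated and control-virus mutants. The excess in the Rpl3 row was therefore small beside the deficit of Rpl3l, and the uncertainty of the Rpl3 level applies to this sum.

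Within each library the ratio of muscle to general form was taken as log2(FPKM + 1) of the first minus that of the second, in which a scale factor of the library nearly cancels for abundant genes and less so for low ones such as Rpl3. For Eef1a2 over Eef1a1 it was 1.41, 1.30 and 1.20 in wild types, -0.73, -1.47 and -0.87 in untreated mutants, and -1.18, -1.27 and -0.79 in control-virus mutants. The mean differences from wild type were -2.33 ± 0.23 (SE) and -2.38 ± 0.16, several times the spread within the groups. shRNA replicates 5, 6 and 7 had 1.40, 1.22 and 1.09, which overlaps the wild types, and replicate 8 had -1.58, the lowest of the 13. Against control-virus mutants the shRNA group differed by 1.61 ± 0.72 with all 4 libraries and by 2.31 ± 0.17 without replicate 8. Against wild type these values were -0.77 ± 0.71 and -0.07 ± 0.11.

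For Rpl3l over Rpl3 the ratio was 5.16, 5.05 and 8.43 in wild types, 1.45, -0.02 and 0.21 in untreated mutants and -0.90, 1.04 and 0.86 in control-virus mutants. The value of 8.43 comes from the wild type with an Rpl3 row of 0.60 FPKM. Mean differences from wild type were -5.67 ± 1.20 (SE) for untreated and -5.88 ± 1.27 for control-virus mutants, and -4.56 and -4.77 without that library. shRNA replicates 5, 6 and 7 had 4.74, 4.83 and 5.75, overlapping the wild types, and replicate 8 had -0.05. The shRNA minus control-virus difference was 3.48 ± 1.45 with all 4 libraries and 4.77 ± 0.70 without replicate 8.

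**Figure D3:**
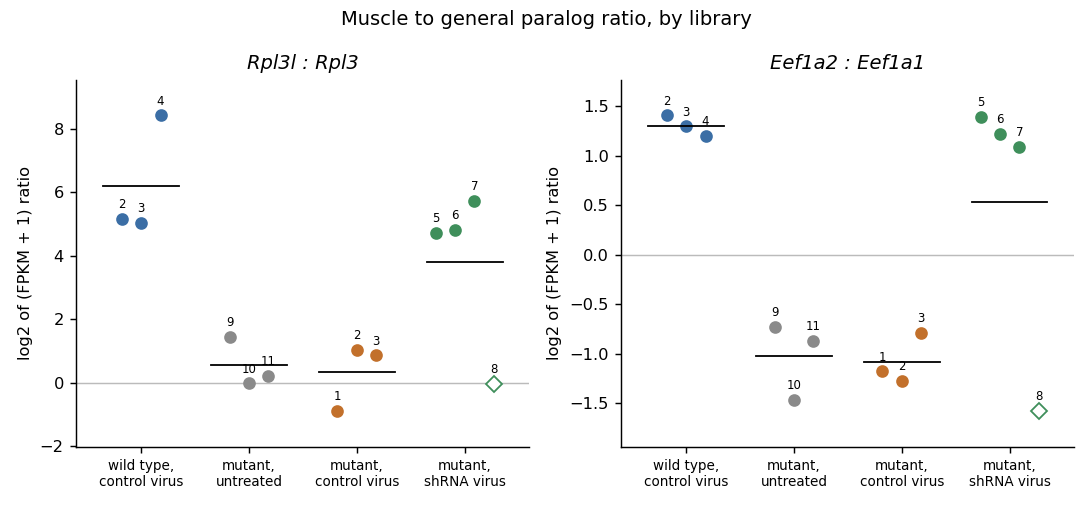
Ratio of muscle to general paralog, as the log2 difference of FPKM + 1, for Rpl3l over Rpl3 and Eef1a2 over Eef1a1 in 13 libraries, with bars at the group means. Wild types and shRNA replicates 5 to 7 lie at 4.74 or more and 1.09 or more, and the other 7 libraries at 1.45 or less and -0.73 or less.

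All 4 members failed to overlap between control-virus mutants and wild types, beside 42.1% of the 12980 genes tested, and between untreated mutants and wild types, beside 48.9%. Between the 2 mutant groups without shRNA, 1 of 4 (Rpl3) did not overlap, beside 15.1%. Between shRNA and control-virus mutants 2 of 4 (Rpl3l and Eef1a2) did not overlap, beside 31.2%, and between shRNA and wild type 0 of 4, beside 11%. Without replicate 8 these were 4 of 4 and 1 of 4 (Rpl3l), and the share of all genes was not computed for that set of libraries. All these counts are on the deposited scale. With libraries aligned, Rpl3 overlapped between the 2 mutant groups without shRNA. Rpl3l then also overlapped between wild types and the shRNA group without replicate 8. The members were proposed from these contrasts, so nothing is read from these counts. The comparisons share their wild-type or control-virus libraries and are not independent.

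Between the 2 mutant groups without shRNA, neither ratio differed beyond its spread. The control-virus minus untreated difference was -0.21 ± 0.77 (SE) for Rpl3l over Rpl3 and -0.06 ± 0.27 for Eef1a2 over Eef1a1, and both pairs of groups overlapped. For the single genes the same differences were 0.66 ± 0.73 for Rpl3l, 0.23 ± 0.25 for Eef1a2 and 0.28 ± 0.16 for Eef1a1, beside a median of 0.23 over all genes, and 0.87 ± 0.21 for Rpl3. With libraries aligned, Rpl3 overlapped between these groups. No gene of the 12980 passed limma at an adjusted p under 0.05 in this comparison (0%), and 572 had an unadjusted p under 0.05. All 3 control-virus mutants were female and 2 of 3 untreated mutants were male.

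Sex and group could be held apart only in part. Among females, Rpl3l was at 552 FPKM in the wild type, at 29.3 in the untreated mutant and at 30.9 to 93.0 in control-virus mutants, and the Eef1a2 to Eef1a1 ratio was at 1.20, -0.87 and -1.27 to -0.79. Among males, Rpl3l was at 584.7 to 601.5 FPKM in wild types, 23.1 to 81.9 in untreated mutants and 616.5 to 1027.1 in shRNA mutants, and the Eef1a ratio at 1.30 to 1.41, -1.47 to -0.73 and 1.09 to 1.40. The separation of mutants without shRNA from wild type was thus present within each sex. The only female of the shRNA group is replicate 8, and control-virus mutants were all female, so within the comparison of shRNA replicates 5 to 7 with control-virus mutants, treatment and sex cannot be told apart. Rn45s, the row of the ribosomal RNA precursor, was at 0 in wild type 2, untreated mutant 11, the 3 control-virus mutants and shRNA replicate 8, and between 8645 and 22526 FPKM in the other 7. Within the first set the Eef1a ratio was 1.41 in the wild type and -1.58 to -0.79 in the 5 mutants. Within the second it was 1.20 and 1.30 in wild types, -0.73 and -1.47 in untreated mutants and 1.09 to 1.40 in shRNA mutants.

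In whole heart RNA, fewer cells of a type and less RNA per cell cannot be told apart. The summed level of 8 of 8 cardiomyocyte markers was 54996 to 74883 FPKM in wild types, 27961 to 43938 in untreated and 34114 to 52549 in control-virus mutants, and 73264 to 131504 in shRNA mutants, with Myh6 listed at 0 in 3 libraries. The 7 fibroblast markers summed to 803 to 1182 in wild types, 1711 to 2240 and 1840 to 2874 in the 2 mutant groups and 852 to 4078 in shRNA mutants. The 6 macrophage markers in the table summed to 378 to 419, 693 to 904, 904 to 1639 and 304 to 2332 in the same order. The highest fibroblast and macrophage sums of all 13 libraries were those of shRNA replicate 8, and without it the shRNA sums were 852 to 1625 and 304 to 617 FPKM. The 6 endothelial markers went the other way, at 447 to 508 in wild types, 250 to 325 in untreated and 262 to 355 in control-virus mutants, with 494 to 799 in shRNA mutants (494 to 733 without replicate 8). In mutants without shRNA against wild types, the fibroblast and macrophage sums were thus higher, as were Eef1a1 and Rpl3. The cardiomyocyte and endothelial sums were lower there, as were Rpl3l and Eef1a2. In shRNA replicate 8 neither the cardiomyocyte nor the endothelial sum went with Rpl3l, which was at 118.2 FPKM. Its cardiomyocyte sum was 73264 FPKM, inside the wild-type range, and its endothelial sum was the highest of the 13, at 799 FPKM. All these sums are on the deposited scale between libraries, and their part in the ratios was not tested. Skeletal muscle, the other tissue rich in Rpl3l and Eef1a2, was nearly absent: 9 of 9 markers summed to at most 8.65 FPKM in any library, and Myh1, Myh2, Myh4 and Myod1 were at 0 in 6 to 10 of 13. For neurons, which make Eef1a2, Snap25 and Th were at 0 in all 13 libraries and Syt1 in 12, while the 9 markers summed to 10.7 to 42.2 FPKM, mostly from Stmn2, Tubb3 and Eno2.

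A further 8 muscle and general pairs gave a scale for the ratios. These pairs were listed with earlier results of these data known, so they are no independent scale. They cover the creatine kinases Ckm and Ckb, 3 cytochrome oxidase subunits (Cox6a2, Cox7a1 and Cox8b with Cox6a1, Cox7a2 and Cox8a), the glycolytic enzymes Eno3 with Eno1 and Pgam2 with Pgam1, the adenine nucleotide carriers Slc25a4 and Slc25a5, and the glycogen phosphorylases Pygm and Pygb. The mean ratio was lower in control-virus mutants than in wild type in 8 of 8, without overlap in 7, by -0.14 to -2.70 with a median of -1.44 on the log2 scale. In untreated mutants it was also lower in 8 of 8, without overlap in 7, by -0.34 to -2.44 with a median of -1.39. Eef1a2 over Eef1a1, at -2.38 and -2.33, lay near the large end of that range and Rpl3l over Rpl3, at -5.88 and -5.67, beyond it. Only Eno3 with Eno1 set that large end, and its Eno1 row was low, at a mean of 3.37 FPKM over all libraries. The next pair, Ckm with Ckb, differed by -1.69 and -1.61.

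The pairs varied in how far each side carried the difference, which passing or not passing a test does not measure. In control-virus mutants against wild type the general form was higher in some pairs and lower in others. Eno3 and Eno1, for example, differed by -1.63 and 1.07, and Cox7a1 and Cox7a2 by -1.49 and -0.44. By limma on log2(FPKM + 1) over all 12980 genes, with Benjamini-Hochberg adjustment, 6 of the 8 muscle forms fell in control-virus mutants against wild type, beside 9.5% of all genes called, from Ckm by 1.06 (adjusted p = 0.0436) to Eno3 by 1.63 (adjusted p = 0.0200), while Pgam2 at -0.87 (adjusted p = 0.0539) and Pygm at -0.78 (adjusted p = 0.0610) did not pass. None of the 8 general forms passed in this comparison, their differences running from -0.63 for Pygb (adjusted p = 0.139) to 1.07 for Eno1 (adjusted p = 0.228). In untreated mutants, beside 20.7% of all genes called, all 8 muscle forms fell, from Pygm by 0.99 to Eno3 by 2.18 (adjusted p from 0.00210 to 0.0111), and of the general forms only Cox7a2 passed, falling by 0.86 (adjusted p = 0.0290). Of all called genes 954 of 1233 and 2490 of 2690 were lower in these comparisons, and 1483 of 3076 and 1804 of 3292 with libraries aligned. Against these, the general form Eef1a1 differed by 1.73 and 1.45 and its muscle partner Eef1a2 by -0.65 and -0.88, so the larger part of the eEF1A shift lay in the general gene. For Rpl3l and Rpl3 the 2 sides were -3.23 and 2.65 in control-virus mutants and -3.88 and 1.78 in untreated mutants, and without wild type 4 those of Rpl3 were 1.51 and 0.64.

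**Figure D4:**
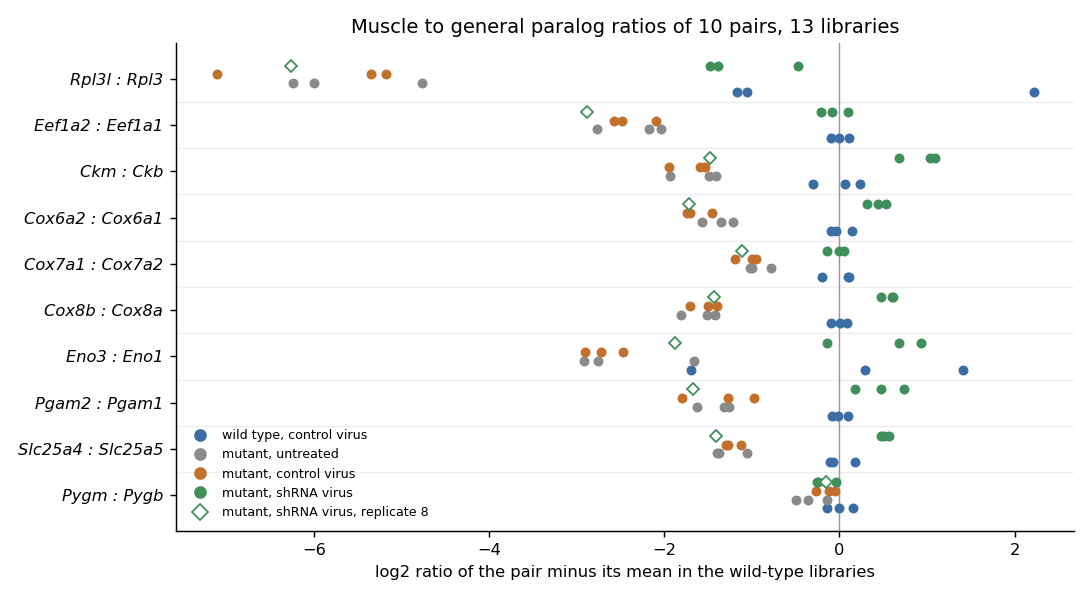
Log2 ratio of muscle to general paralog in each of 13 libraries minus the mean of that ratio in the 3 wild types, for Rpl3l with Rpl3, Eef1a2 with Eef1a1 and 8 other pairs. Mutants without shRNA and shRNA replicate 8 lie left of 0, the wild-type mean, in all 10 pairs, with overlap between groups in Pygm with Pygb and Eno3 with Eno1, and Rpl3l with Rpl3 reaches farthest left.

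In the shRNA group the 8 other pairs differed from control-virus mutants by -0.03 to 2.60 with a median of 1.40 with replicate 8 included. Of these, 2 of 8 were higher without overlap (Ckm with Ckb and Eno3 with Eno1), and the median difference from wild type was -0.09. Replicate 8 was the lowest of its group in 9 of the 10 pairs, members included, the exception being Pygm with Pygb at 0.61 in a group that ran from 0.51 to 0.73. Without it, 5 of the 8 pairs lay above all wild types without overlap. The Eef1a pair and the Rpl3l pair, at mean differences from wild type of -0.07 and -1.11 without replicate 8 and -0.77 and -2.40 with it, did overlap with wild type. The wild-type mean of the Rpl3l pair includes replicate 4 at 8.43, and shRNA replicates 5 to 7 had a mean of 5.10 beside 5.16 and 5.05 in wild types 2 and 3.

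Other genes of translation were read from 8 lists holding 134 tested genes that are no members. limma called 1233 of 12980 genes (9.5%) in control-virus mutants against wild type, 279 higher and 954 lower, and 4 of the 134, 2 higher and 2 lower. With libraries aligned on their medians the split was 1593 higher and 1483 lower over all genes, and 12 higher and 7 lower in the lists. In untreated mutants against wild type it called 2690 genes (20.7%), 200 higher and 2490 lower, and 10 of the 134, 1 higher and 9 lower. Aligned, these became 1488 higher and 1804 lower, and 8 higher and 7 lower. The share of the 134 that was called lay below the share of all genes in both comparisons. The counts moved with single libraries: without shRNA replicate 8, which enters only through the shared spread, they were 2755 genes and 10 list genes in control-virus mutants and 4022 and 18 in untreated mutants, and at the other end 179 genes without control-virus mutant 1 and 1070 without untreated mutant 10.

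For the shRNA group limma called 4545 genes (35%) against control-virus mutants, 4330 higher and 215 lower, and 27 of the 134, 26 higher and 1 lower. Aligned, these were 1637 higher and 1522 lower over all genes, and 8 higher and 6 lower in the lists, so the direction of the list calls rests on the scale between libraries. Without replicate 8 it called 3952 higher and 1161 lower, and 22 higher and 4 lower in the lists. Against wild type it called 14 genes (0.108%), all higher, and 0 of the 134, with 2026 genes at an unadjusted p under 0.05, and without replicate 8 it called 218 genes and 1 of the 134. Aligned, 4 were higher and 7 lower.

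Elongation and release factors other than eEF1A gave few calls against wild type. Of 14 genes 0 passed in control-virus mutants, where the list median was -0.03 on the log2 scale beside -0.14 for all genes, and Eef2, the translocation factor and most abundant of the list, stood at 1442 ± 106 FPKM in wild type and 1486 ± 141 in control-virus mutants (SD, n = 3 each). In untreated mutants against wild type 2 of 14 passed, both lower: Eef2k, the kinase that inhibits Eef2, fell by 0.96 on the log2 scale (adjusted p = 0.0134), and Hbs1l, a rescue factor for stalled ribosomes, fell by 0.68 (adjusted p = 0.0396). With libraries aligned the Eef2k call held (adjusted p = 0.0237) and that of Hbs1l did not (-0.32, adjusted p = 0.0975), and the latter was kept in 5 of 13 fits that left out 1 library. In shRNA against control-virus mutants 3 of 14 were higher, beside 35% of all genes called. The 3 were Eef2k by 0.99, Hbs1l by 0.63 and Eef1d, a subunit of the exchange factor of eEF1A, by 0.78 (adjusted p = 0.00508, 0.0279 and 0.0155). Eef1d was named after its value was seen. Aligned, Eef2k kept its call at 0.53 (adjusted p = 0.0347) and Hbs1l and Eef1d did not (adjusted p = 0.391 and 0.102).

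Enzymes that modify the 2 proteins were measured in small numbers. Of 3 tested lysine methyltransferases of eEF1A, 0 passed against wild type in either mutant group, and in shRNA against control-virus mutants N6amt2 (now named Eef1akmt1) rose by 1.10 (adjusted p = 0.00240), from 43.0 ± 8.81 FPKM (n = 3) to 94.3 ± 23.2 (n = 4). Of Grwd1, the chaperone of newly made uL3, and Mettl18, which methylates a histidine of uL3, neither passed against wild type, and Mettl18 rose by 0.78 in shRNA against control-virus mutants (adjusted p = 0.0454), a call that was lost in 6 of 6 other settings of the test. Among 5 tested variant ribosomal proteins other than Rpl3l, such as Rpl36al and Rps27l, 0 passed against wild type, the differences in control-virus mutants lying between -0.17 and 0.51. Rpl22l1 rose by 0.91 in shRNA against control-virus mutants (adjusted p = 0.0131), and not with libraries aligned (adjusted p = 0.107).

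Of 42 large-subunit proteins other than Rpl3, 1 passed in control-virus mutants against wild type, where the list median was 0.12 beside -0.14 for all genes. It was Rpl23a, which rose by 1.09 (adjusted p = 0.0492) from a row of at most 0.69 FPKM to one of 1.44 to 2.43, one of the rows far below its peers. This call was kept in 2 of 13 fits that left out 1 library (adjusted p up to 0.321). In untreated mutants 2 of 42 passed, Rpl35a and Rpl21, lower by 2.42 and 2.23 (adjusted p = 0.00479 and 0.0460), both named after their values were seen. The call of Rpl35a held in all 13 fits that left out 1 library and with libraries aligned, and that of Rpl21 in 4 of 13 and not aligned (adjusted p = 0.0742). In shRNA against control-virus mutants 8 were higher and 1, Rpl26, at -3.40 (adjusted p = 0.000738). Rpl26 was also named after its value was seen. Of 31 small-subunit proteins 0 passed in either mutant group against wild type. In shRNA against control-virus mutants 5 of them rose, among them Rps7 by 0.93 and Rps10 by 0.72 (adjusted p = 0.0112 and 0.0345). The counts of both subunit lists there stand beside 35% of all genes called, 4330 of 4545 of them higher. Aligned, Rps7 kept its call (adjusted p = 0.0180), while Rps10 at 0.24 and Rps2 at 3.38 did not pass (adjusted p = 0.199 and 0.0842). Rps2 differed by 3.81 (adjusted p = 0.0188), a value that rests on a listed 1.02 FPKM in control-virus mutant 3 beside 332 and 459 in the other two. Rps2 is also the gene next but one to Rpl3l.

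Ribosome biogenesis and translation control held the other calls. Polr1a, the large subunit of the polymerase that makes ribosomal RNA, fell by 0.98 in control-virus mutants (adjusted p = 0.0180) and by 1.13 in untreated mutants (adjusted p = 0.00403), from 37.5 ± 2.65 FPKM to 18.6 ± 2.24 and 17.1 ± 5.76 (SD, n = 3 each). It rose by 0.95 in shRNA against control-virus mutants (adjusted p = 0.00454), and all 3 calls held with the libraries aligned. The calls in untreated and shRNA mutants also held in all 7 other settings tried, while that in control-virus mutants held in 6 of 8 (highest adjusted p = 0.452, with sex as a covariate). The call of Polr1a in control-virus mutants was kept in 8 of 13 fits that left out 1 library, and the other 2 in all 13. Myc, a driver of ribosome production, rose by 1.93 and 2.16 in the 2 mutant groups (adjusted p = 0.0488 and 0.0163), from 2.74 ± 0.61 FPKM to 13.9 ± 6.38 and 16.1 ± 5.49, and stood at 2.01 to 4.34 FPKM in shRNA replicates 5 to 7 and 32.8 in replicate 8. The Myc call in control-virus mutants was kept in 2 of 13 fits that left out 1 library (adjusted p up to 0.286 over all alternatives). The other 16 of 18 biogenesis genes did not pass in control-virus mutants. Eif4e, which binds the cap of messenger RNA, fell by 0.92 and 1.02 (adjusted p = 0.0302 and 0.00888), from 112 ± 7.96 FPKM to 59.3 ± 9.47 and 55.3 ± 11.4. Aligned, the adjusted p of Eif4e was 0.0427 and 0.0685. Its call in control-virus mutants was kept in 6 of 8 other settings and in 8 of 13 fits that left out 1 library (adjusted p up to 0.512 over all alternatives). Eif4e rose by 1.32 in shRNA against control-virus mutants (adjusted p = 0.00102), with 112.2 FPKM in replicate 8 and 134.7 to 210.8 in replicates 5 to 7. The 18 other genes of translation control did not pass in control-virus mutants, and in untreated mutants Eif4g1 and Eif4ebp2 also fell, by 0.79 and 0.70 (adjusted p = 0.0261 and 0.0330). These last 2 were named after their values were seen. Aligned, Eif4g1 kept its call (adjusted p = 0.0402) and Eif4ebp2, at -0.34, did not (adjusted p = 0.117).

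The genes whose log2(FPKM + 1) pattern over the 13 libraries was most like that of Rpl3l were Dgat2 (Pearson r = 0.99, the last step of triglyceride synthesis), Ivd (0.99, leucine breakdown), Csl (0.98), Acaa2 (0.98, the thiolase of mitochondrial fat oxidation) and Dhrs7c (0.98, a dehydrogenase of the sarcoplasmic reticulum). Dgat2 stood at 373 FPKM in wild type, 70.1 and 80.4 in untreated and control-virus mutants and 96.8 to 550 across the shRNA group. Among the most negative r were those of Krt18 (-0.94), a keratin, and Wnt16 (-0.94), which was at 0 in all 3 wild types and at 5.82 to 23.6 FPKM in the mutants without shRNA. These r values share the 4 groups and the scale of the libraries, and carry no test.

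Most like Eef1a2 were Mgrn1, a ubiquitin ligase, Macrod1, a mitochondrial ADP-ribose hydrolase, the mitochondrial ribosomal protein gene Mrpl28, Ndrg2 and the aldehyde dehydrogenase gene Aldh2, each at r = 0.99. Macrod1 stood at 408, 144, 182 and 515 FPKM in wild type, untreated, control-virus and shRNA mutants. Kcnj6 (-0.84), Slitrk4 (-0.83) and Krt18 (-0.82) were the most negative. Rpl3l and Eef1a2 had r = 0.91 with each other, which put Eef1a2 at rank 680 by r with Rpl3l. Rpl3l had r = -0.44 with Rpl3 and -0.70 with Eef1a1, Eef1a2 had r = -0.39 with Eef1a1, and Rpl3 and Eef1a1 had r = 0.69. Lists for the general members were added after their values were seen: Ckap4, Mpeg1, Emb, Lyz2 and Esd were most like Eef1a1 (r = 0.98 each), and Mpeg1 and Lyz2 are genes of macrophages.

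Genes beside the members in the RefSeq order were also looked at after the values were seen. Ndufb10 and Msrb1, which flank Rpl3l, differed by -0.99 (adjusted p = 0.0409) and -0.41 (adjusted p = 0.400) in control-virus mutants against wild type by limma, beside -3.23 for Rpl3l. Ppdpf, beside Eef1a2, differed by -0.58 (adjusted p = 0.225). Mto1 and Slc17a5, beside Eef1a1, differed by -0.50 and 0.12 (adjusted p = 0.179 and 0.831), beside 1.73 for Eef1a1, and Pdgfb and Syngr1, beside Rpl3, by -0.21 and 0.29 (adjusted p = 0.590 and 0.540). In untreated mutants against wild type 5 of these 7 neighbours fell, beside 20.7% of all genes called, 2490 of 2690 of them lower. The 5 were Ndufb10 by 1.37, Msrb1 by 0.83, Ppdpf by 1.08, Mto1 by 0.70 and Pdgfb by 0.74 (adjusted p = 0.00437, 0.0456, 0.0144, 0.0367 and 0.0242). These differences are on the deposited scale, on which the median of all genes was -0.33 in that comparison. The difference of Ppdpf there was larger than that of Eef1a2 beside it, at -0.88.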

How the data were processed

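PolyA RNA of 13 hearts was sequenced as paired reads of 100 bases. The authors deposited 1 table of FPKM values, 23998 rows by 13 libraries. Per the submitters' processing notes, FastQC 0.11.2, STAR 2.40, Cufflinks 2.2.1, Cuffdiff and the mouse build mm9 were used. No source used here gives the step each tool served, the annotation or the treatment of multi-mapped reads. The 11 small RNA libraries were not used. Read depth is unknown, so no counting interval is given.

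Genotype was taken from the sample names, and the treatment of the mutants from their treatment labels. Values were analysed as log2(FPKM + 1), which understates the change of low genes, in R 4.3.3 with limma 3.58.1: 1 model with 4 groups over 13 libraries, 12980 genes averaging 1 FPKM or more, and Benjamini-Hochberg adjustment over all of them at 0.05. Ratios are differences of log2(FPKM + 1) within a library. Tables and figures were made in Python 3.11.15 with pandas 2.3.3 and numpy 2.4.6, and the limma step was tested on simulated data. Alternatives were a pseudocount of 0.1, libraries aligned on their median, sex as a covariate, a mean of at least 5 FPKM, no filter, the 2 groups alone, a replicate block and leaving out each library.

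The members and all lists were chosen with earlier results of these data known. Members are described without tests. By rule, each list names up to 4 called genes with the smallest p in the first comparison that calls any, or else its most abundant gene, and each muscle member names the 5 highest and 3 lowest genes by Pearson r. A few genes that this rule names are not reported here.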

Additional observations from a re-analysis of the deposited data

Results flagged for a closer look

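In the shRNA group of 4 hearts, replicate 8 was the lowest library and stood far from the other 3 for 6 of 14 quantities examined. Its distance from the nearest other library, as a share of the whole range of the group, was 0.896 for the ratio of Eef1a2 to Eef1a1, 0.839 for Ckm to Ckb, 0.904 for Cox6a2 to Cox6a1, 0.831 for Cox7a1 to Cox7a2, 0.928 for Cox8b to Cox8a and 0.956 for Slc25a4 to Slc25a5. Chance marks about 1 in 20 groups by this measure, and the ratios come from the same 4 libraries. The Eef1a2 to Eef1a1 log2 ratio of replicate 8 was -1.58, beside 1.09 to 1.40 in replicates 5 to 7. Its ratio was 4.03 for Ckm to Ckb beside 6.19 to 6.60, and 0.95 for Cox6a2 to Cox6a1 beside 2.98 to 3.20. It was 1.85 for Cox7a1 to Cox7a2 beside 2.82 to 3.01, 1.49 for Cox8b to Cox8a beside 3.39 to 3.54, and 2.58 for Slc25a4 to Slc25a5 beside 4.47 to 4.56. The same library is the only female of its group, has hMyl2 at 0 and has Six3 at 60.6 FPKM. The part of these differences in its ratios was not tested.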

How the results depend on the processing

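Recomputed values were set against the pooled SD of the 2 compared groups. Leaving out 1 library cannot move a difference by more than that SD, so for those fits the outcome was fixed in advance. In the shRNA group the SD includes replicate 8. The shRNA minus control-virus difference of Rpl3l over Rpl3, 3.48 and 4.77 without replicate 8, thus counts as moved by less. Of 328 recomputed values of the members, 311 moved by less than the spread between replicates and 16 moved by more. The other 1 changed sign from a difference larger than that spread: Eef1a1 between control-virus and untreated mutants, -0.34 with sex as a covariate. Changes of sign in differences smaller than the spread are not counted in that 1. Rpl3l in shRNA mutants against wild type, for example, went from -0.23 to 0.45 without shRNA replicate 8. With sex as a covariate the control-virus minus wild-type difference was -2.43 for Rpl3l and -1.72 for the Eef1a2 to Eef1a1 ratio, and the control-virus minus untreated difference of that ratio was 0.60. With the replicate block the Rpl3l to Rpl3 ratio differed by -4.15 between control-virus mutants and wild type. Replicate numbers 2 and 3 occur in both of these groups, but nothing in the labels pairs the hearts; the replicate block gave 803 called genes there.

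For control-virus mutants against wild type the count of called genes was 3076 with libraries aligned, 5145 aligned without shRNA replicate 8 (chosen after seeing the data), 126 with sex as a covariate, 796 with no filter and 3597 with the 2 groups alone. List genes called were 19, 30, 0, 2 and 11 in the same order. For untreated mutants against wild type the count was 5205 aligned without replicate 8 and 5134 with the 2 groups alone, with 25 and 30 list genes. For control-virus against untreated mutants it was 6 aligned without replicate 8, 1 with no filter and 181 with the 2 groups alone, with 4 list genes in the last. For shRNA against control-virus mutants it was 2624 with sex and 2406 with the 2 groups alone, with 14 list genes aligned and 12 with the 2 groups alone. For shRNA against wild type it was 800 aligned without replicate 8, 50 with sex, 9 at a mean of at least 5 FPKM and 0 with the 2 groups alone, with 11 list genes in the first. The cause was not tested.

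Leaving out 1 library moved the count from 179 (without control-virus mutant 1) to 2755 (without shRNA replicate 8) in control-virus mutants against wild type, from 1070 (without untreated mutant 10) to 4022 (without shRNA replicate 8) in untreated mutants against wild type, from 0 to 7 between the mutant groups, from 2055 (without control-virus mutant 3) to 7164 (without shRNA replicate 5) in shRNA against control-virus mutants and from 0 (without wild type 2) to 256 (without shRNA replicate 5) in shRNA against wild type. For list genes the ranges were 0 to 10, 3 to 19, 0 to 0, 9 to 83 and 0 to 8. The Rpl3 difference from wild type rests on wild type 4, as given above. With 3 or 4 hearts a group and no read counts, the precision of low rows such as Rpl3 is limited and unknown.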
